A study of Saccharomyces cerevisiae with 18 samples.

Results

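The 8 genes described here are metabolic genes of budding yeast, with the regulator HMS2 among them. Their transcripts were lower in wild-type cells exposed to Congo Red. The genes are APE1, OPT1, HMS2, MAE1, PLB2, AAH1, ATO3 and RKI1. They were selected on the log2 difference between treated and untreated wild-type arrays in the fit without pairing, so that difference is given as a description without a test. They are 8 of the 5659 features measured above a log2 level of 4 on at least 3 arrays, and all 8 passed that filter. Each was read by 1 probe set. Among the 27 wild-type features called lower they hold 8 of the 9 largest decreases. The other is YLR154C-H, at -1.83 on the log2 scale. Just inside the edge of the choice lay ATO3 (-0.90) and RKI1 (-0.87), and just outside it lay DHR2 (-0.85) and YJL047C-A (-0.83). In all, 18 features had a mean decrease at least as large as that of RKI1, and 9 of these were not called.

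The arrays came from Saccharomyces cerevisiae strain BY4741 in 6 groups of 3: the swi3 mutant with 30 µg/ml Congo Red for 4 hours and without it, the rlm1 mutant with and without it, and the wild type with and without it. All 3 strains share the BY4741 background, and the labels do not say how the mutants were made. Congo Red attaches to chitin and other wall polysaccharides and weakens the growing wall. The rlm1 mutant is named for RLM1, whose product switches on wall repair genes when the Slt2 MAP kinase is active. The swi3 mutant is named for SWI3, which encodes a subunit that SWI/SNF, a remodeller of promoter nucleosomes, needs for its assembly. The series design calls the 3 arrays of a group biological samples, and the p-values below measure the spread between these arrays.

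Of the 8 genes, all but HMS2 serve different parts of metabolism. OPT1 encodes a plasma membrane transporter of oligopeptides and glutathione, and ATO3 a membrane protein linked to ammonium export. APE1 encodes a vacuolar aminopeptidase that reaches the vacuole by the cytoplasm-to-vacuole targeting (Cvt) route, and PLB2 a phospholipase B that removes acyl chains from phospholipids. MAE1 encodes the mitochondrial malic enzyme, which converts malate to pyruvate, AAH1 the adenine deaminase that makes hypoxanthine in purine salvage, and RKI1 the ribose-5-phosphate isomerase of the pentose phosphate pathway. HMS2 encodes a protein related to heat shock transcription factors and linked to pseudohyphal growth. Yeast commonly lowers genes of biosynthesis and growth under stress and when nutrients run short.

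RLM1 was between 4.53 and 5.05 on the 6 rlm1 arrays, against 9.16 to 10.52 in the wild type, and SWI3 was between 3.16 and 3.51 on the 6 swi3 arrays, against 9.42 to 9.67 in the wild type. LEU2, MET17 and URA3, which BY4741 lacks, stayed between 3.82 and 7.84 on all arrays, whereas HIS3, of which BY4741 lacks only part, was at 10.48 or above. Markers of mating type a (MFA1, MFA2, STE2 and BAR1) lay between 8.13 and 13.40, and 3 markers of mating type alpha between 4.02 and 7.23. The median log2 level of the tested features was 10 to 10.04 on wild-type arrays and 9.58 to 9.70 on swi3 arrays. On the 2 rlm1 arrays numbered 1 it was 9.29 with the dye and 9.27 without it, and on the other rlm1 arrays 9.98 to 10.02. These 2 arrays stand apart, and results that rest on them are also given without them. The mean difference between 3' and 5' probe sets of 7 control genes, a sign of RNA degradation, was 1.03 and 1.15 on them, 0.80 to 0.87 on treated and 0.83 to 1.26 on untreated swi3 arrays, and 0.72 to 0.81 in the wild type.

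**Figure D1:**
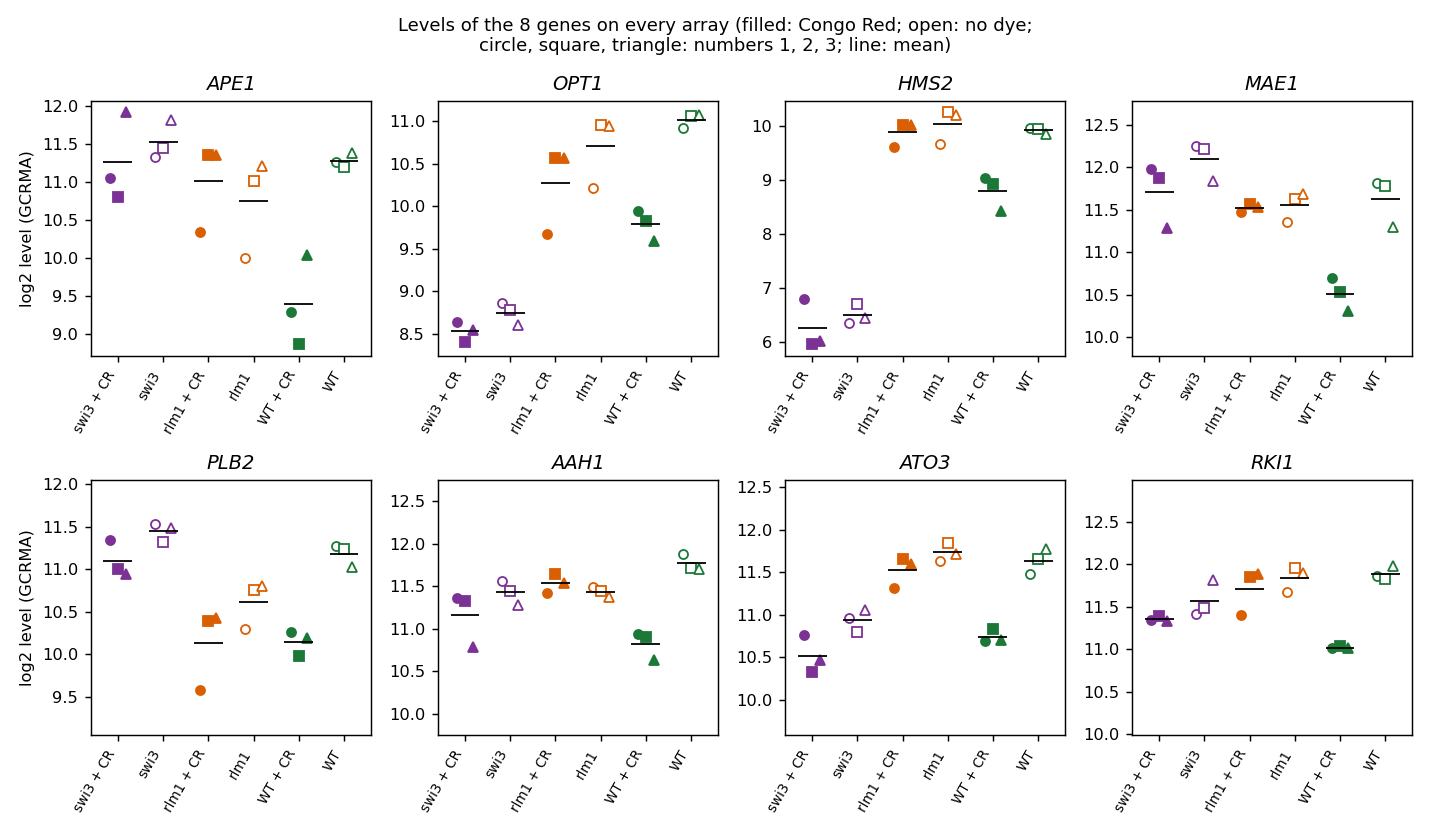
Log2 level of each of the 8 genes on every array, by group; filled symbols are arrays with Congo Red (CR), open symbols arrays without it, circle, square and triangle are replicate numbers 1, 2 and 3, and lines are group means (n = 3). Vertical axes differ between panels. In each panel the 3 treated wild-type arrays lie below the 3 untreated wild-type arrays, and HMS2 and OPT1 lie lowest on the swi3 arrays.

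Both transporters were low in swi3. For OPT1, the swi3 arrays numbered 1 to 3 read 8.64, 8.41 and 8.55 with Congo Red and 8.86, 8.78 and 8.60 without it. In rlm1, OPT1 read 9.67, 10.57 and 10.57 with Congo Red and 10.21, 10.96 and 10.94 without it. The wild-type arrays had OPT1 at 9.95, 9.83 and 9.59 with the dye and at 10.92, 11.06 and 11.07 without it. Thus both swi3 groups lay below every array of the other strains, and the 4 other groups, in the order treated wild type, treated rlm1, untreated rlm1 and untreated wild type, each overlapped the next.

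ATO3 was at 10.76, 10.33 and 10.47 in treated swi3, against 10.96, 10.80 and 11.06 in untreated swi3. In rlm1 its levels were 11.31, 11.66 and 11.60 with Congo Red and 11.63, 11.85 and 11.72 without it. Wild-type ATO3 stood at 10.69, 10.83 and 10.70 with the dye and at 11.48, 11.66 and 11.77 without it. The 6 swi3 arrays and the 3 treated wild-type arrays formed a low set from 10.33 to 11.06, and the remaining arrays a high set from 11.31 to 11.85.

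APE1 had the largest standard error of the 8, 0.38 for a difference between 2 groups. Treated swi3 arrays had APE1 at 11.05, 10.80 and 11.91, against 11.33, 11.44 and 11.81 on untreated swi3 arrays. In rlm1, APE1 was at 10.34, 11.35 and 11.35 with the dye and at 10, 11.01 and 11.21 without it. Wild-type values were 9.28, 8.86 and 10.04 with the dye and 11.26, 11.19 and 11.37 without it. The treated wild type was lowest, with a mean of 9.39, and overlapped untreated rlm1 through a single array on each side. The other 5 group means ran from 10.74 in untreated rlm1 to 11.53 in untreated swi3, and each group overlapped the next.

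PLB2 read 11.34, 11 and 10.94 in treated swi3, against 11.53, 11.32 and 11.49 in untreated swi3. In treated rlm1 it was at 9.58, 10.39 and 10.43, against 10.30, 10.76 and 10.80 in untreated rlm1. The wild type had PLB2 at 10.26, 9.98 and 10.19 with the dye and at 11.28, 11.24 and 11.03 without it. It was the one gene of the 8 whose lowest mean was in treated rlm1 (10.13), next to the treated wild type (10.14), and these 2 groups overlapped. Untreated rlm1 lay above the treated wild type, though not above every treated rlm1 array, and below the remaining 3 groups, of which untreated swi3 was the highest.

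Among the enzymes, MAE1 was highest in swi3, at 11.98, 11.87 and 11.28 with Congo Red and 12.25, 12.21 and 11.84 without it. In rlm1 it was at 11.47, 11.57 and 11.53 with the dye and at 11.35, 11.62 and 11.68 without it. Wild-type MAE1 was at 10.70, 10.53 and 10.31 with the dye and at 11.81, 11.78 and 11.30 without it. The 3 treated wild-type arrays were thus the lowest of the 18, and the other 5 groups each overlapped the next.

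AAH1 was at 11.36, 11.33 and 10.79 in treated swi3, against 11.56, 11.45 and 11.28 in untreated swi3. The rlm1 arrays read 11.42, 11.65 and 11.54 with the dye and 11.49, 11.44 and 11.38 without it. In the wild type AAH1 was at 10.94, 10.91 and 10.63 with the dye and at 11.88, 11.72 and 11.71 without it. The untreated wild type lay above all other arrays, and the treated wild type overlapped treated swi3 alone through its array of 10.79.

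For RKI1, values were 11.34, 11.39 and 11.33 in treated swi3, against 11.42, 11.48 and 11.81 in untreated swi3. Treated rlm1 arrays gave 11.40, 11.85 and 11.89, against 11.67, 11.96 and 11.90 on untreated rlm1 arrays. The wild type was at 11.01, 11.04 and 11.01 with the dye and at 11.86, 11.83 and 11.98 without it. The treated wild type was the lowest group and treated swi3 the next, neither overlapping its neighbours, whereas the 4 higher groups each overlapped the next.

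For HMS2, the regulator, swi3 arrays read 6.79, 5.96 and 6.03 with Congo Red and 6.35, 6.70 and 6.44 without it. The rlm1 arrays read 9.61, 10.01 and 10.02 with the dye and 9.67, 10.25 and 10.21 without it. In the wild type HMS2 was at 9.04, 8.93 and 8.43 with the dye and at 9.96, 9.94 and 9.85 without it. All 6 swi3 arrays were below a level of 7, under which 36 of 47 reporter probe sets stayed on every array, so a difference against swi3 is a least estimate and the response to the dye within swi3 has an uncertain size. Above them came the treated wild type and then the other 3 groups, which overlapped each other.

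The first comparison was the response to Congo Red in the 2 mutants, whose arrays were not used to pick the genes. No member was called in either at an adjusted p under 0.05 (limma), where decreases made up 0% of all features in both mutants and increases 0.159% in swi3 and 0.0884% in rlm1. In swi3 all 8 means were lower with the dye, as were 40.7% of all features, by 0.21 to 0.42 on the log2 scale. The swi3 median was -0.27, against 0.03 over all features. In rlm1 6 of 8 means were lower, against 47.9% of all features, and the differences ran from -0.49 to 0.27 with a median of -0.15. In the wild type, where the genes were chosen, the differences ran from -1.88 for APE1 to -0.87 for RKI1, which left treated levels at 27.2% to 54.7% of the untreated ones. There 0.477% of all features were called lower and 1.57% higher. At an unadjusted p under 0.05 the test picked 1 member in swi3 (ATO3), among 121 features, and 1 in rlm1 (PLB2), among 67.

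**Figure D2:**
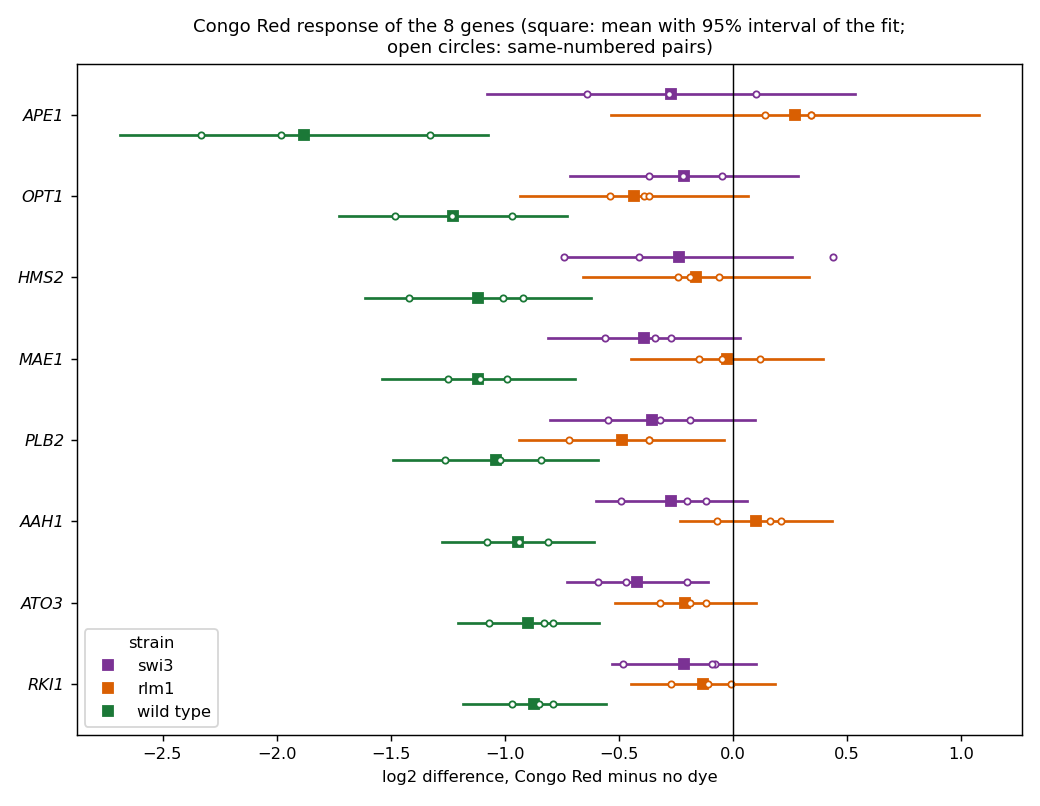
Congo Red minus no dye, on the log2 scale, for each gene in swi3 (top of each set), rlm1 (middle) and wild type (bottom); squares are mean differences, bars the 95% intervals of the limma fit (n = 3 arrays per group), open circles the 3 same-numbered pairs. All wild-type means lie at -0.87 or below, and all mutant means at -0.49 or above; the wild-type values chose the genes and carry no test.

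In swi3, ATO3 had the largest difference, -0.42 ± 0.15 (SE, n = 3 per group, limma adjusted p = 1). MAE1 was at -0.39 ± 0.20 and PLB2 at -0.35 ± 0.21, both also with an adjusted p of 1. In the fit that pairs arrays by number within each strain, MAE1 and ATO3 were called lower in swi3 (adjusted p = 0.0196 and 0.0204 in limma's fit with the replicate block), that is 2 of 8 members, where 1.31% of all features were called lower. MAE1 differed by -0.27, -0.34 and -0.56 in the 3 pairs, and ATO3 by -0.20, -0.47 and -0.59. Of the 8 genes, 6 were lower in all 3 swi3 pairs, against 14% of all features. ATO3 and RKI1 were the 2 members whose treated and untreated swi3 arrays did not overlap, as held for 3.22% of all features in this direction. The untreated swi3 arrays numbered 1 and 3 had the larger differences between 3' and 5' probe sets (1.04 and 1.26), and the part of this in the response was not tested.

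In rlm1, PLB2 was at -0.49 ± 0.21 (SE, n = 3 per group, limma adjusted p = 1) and OPT1 at -0.43 ± 0.23 (adjusted p = 1). With the replicate block the adjusted p was 0.0559 for PLB2 and 0.0654 for OPT1, and 0 of 8 members were called, where 0.353% of all features were called lower. OPT1 was lower in each pair, by 0.54, 0.39 and 0.37, and PLB2 by 0.72, 0.37 and 0.37. In all, 5 of the 8 genes were lower in all 3 rlm1 pairs, against 16.8% of all features, and 0 had groups that did not overlap, against 0.671% in this direction. APE1 and AAH1 had positive means, 0.27 ± 0.38 and 0.10 ± 0.16. Without the 2 rlm1 arrays numbered 1, PLB2 was at -0.37, OPT1 at -0.38, APE1 at 0.24 and AAH1 at 0.19, and again no member was called (0.0177% of all features were called lower).

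The 95% intervals of these responses come from the fit without pairing, whose spread is shared by all 18 arrays. With the replicate block the SE in swi3 was 0.08 instead of 0.20 for MAE1 and 0.08 instead of 0.15 for ATO3. The intervals therefore leave out what the pairing adds in precision. In rlm1 the 95% interval ran from -0.45 to 0.40 for MAE1, from -0.23 to 0.43 for AAH1, from -0.52 to 0.10 for ATO3 and from -0.45 to 0.19 for RKI1. In swi3 the intervals ran from -0.81 to 0.03 for MAE1, -0.60 to 0.06 for AAH1, -0.73 to -0.11 for ATO3 and -0.53 to 0.10 for RKI1. The wild-type means of these 4 genes, in the same order, were -1.12, -0.94, -0.90 and -0.87, given as a description since they chose the genes. For APE1 the interval was -0.53 to 1.08 in rlm1 and -1.08 to 0.53 in swi3, against a wild-type mean of -1.88. The rlm1 interval was -0.94 to -0.04 for PLB2 (wild-type mean -1.04), -0.93 to 0.07 for OPT1 (-1.23) and -0.66 to 0.33 for HMS2 (-1.12). In swi3 the intervals of PLB2, OPT1 and HMS2 ran from -0.80 to 0.10, -0.71 to 0.29 and -0.73 to 0.26. The wild-type means were picked for their size, so whether a mutant lost the response was not tested.

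The response of the mutants minus that of the wild type contains the chosen values and is given without a test. It was positive for all 8 genes in both mutants. In swi3 it ran from 0.48 ± 0.21 (SE) for ATO3 to 1.61 ± 0.54 for APE1, and in rlm1 from 0.55 ± 0.30 for PLB2 to 2.15 ± 0.54 for APE1. These 2 differences share the wild-type arrays. The response in swi3 minus that in rlm1, which uses none of them, was tested, and 0 of 8 members were called (0% of all features were called lower and 0.0177% higher). At an unadjusted p under 0.05 this test had 0 members and 54 features. Its largest values were -0.55 ± 0.54 for APE1 and -0.37 ± 0.22 for AAH1 (adjusted p = 1 for both), with intervals of -1.69 to 0.59 and -0.84 to 0.10, so this does not show that the mutants respond alike.

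The second comparison set the mutants against each other at the same dye condition, again on arrays that did not choose the genes. HMS2, OPT1 and ATO3 were lower and PLB2 higher in swi3 than in rlm1, both without and with the dye, and the other 4 genes were not called. Lower calls made up 10.1% of all features without the dye and 9.44% with it, and higher calls 6.03% and 6.73%, beside 3 lower and 1 higher of the 8. The median of all features was itself shifted by -0.13 without and -0.10 with the dye.

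Without the dye HMS2 fell by 3.55 ± 0.23 on the log2 scale in swi3 against rlm1 (SE, n = 3 per group, limma adjusted p = 5.37e-08). OPT1 fell by 1.96 ± 0.23 there (adjusted p = 3.4e-05), to 25.8% of its rlm1 level. ATO3 fell by 0.79 ± 0.15 (adjusted p = 0.00139). PLB2 was higher by 0.83 ± 0.21 (adjusted p = 0.0135), but this call was lost without the untreated swi3 array numbered 1 (0.0531) and in a fit of these 2 strains alone (0.0607). For each of these 4 genes all 3 swi3 arrays lay beyond all 3 rlm1 arrays, as held for 13.9% of all features below and 11.6% above. APE1 (0.79 ± 0.38) and MAE1 (0.55 ± 0.20) were not called (adjusted p = 0.196 and 0.0753), although their swi3 arrays also lay above all rlm1 arrays. They were called once each array was centred on its median (0.0257 and 0.039, where 16.4% of all features were higher). Without the 2 rlm1 arrays numbered 1 they were at 0.42 and 0.45 and not called (0.273 and 0.0775), so the size for APE1 rests on the untreated rlm1 array numbered 1. RKI1 was called lower without the 2 rlm1 arrays numbered 1 (-0.36, adjusted p = 0.00588), where 57% of all features were.

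With Congo Red the differences of HMS2 (-3.62 ± 0.23), OPT1 (-1.74 ± 0.23), ATO3 (-1.0 ± 0.15) and PLB2 (0.96 ± 0.21) had limma adjusted p-values of 4.32e-08, 0.000111, 0.000204 and 0.00522. AAH1 was at -0.38 ± 0.16 and RKI1 at -0.36 ± 0.15 (adjusted p = 0.125 and 0.122). All treated swi3 arrays lay below all treated rlm1 arrays for OPT1, HMS2, AAH1, ATO3 and RKI1, 5 of 8 members against 12.6% of all features, and above them for PLB2 (12.1%). Without the 2 rlm1 arrays numbered 1, both of these were called as well, at -0.44 and -0.52 (adjusted p = 0.0278 and 0.00061). In that fit 55% of all features were called lower with the dye.

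**Figure D3:**
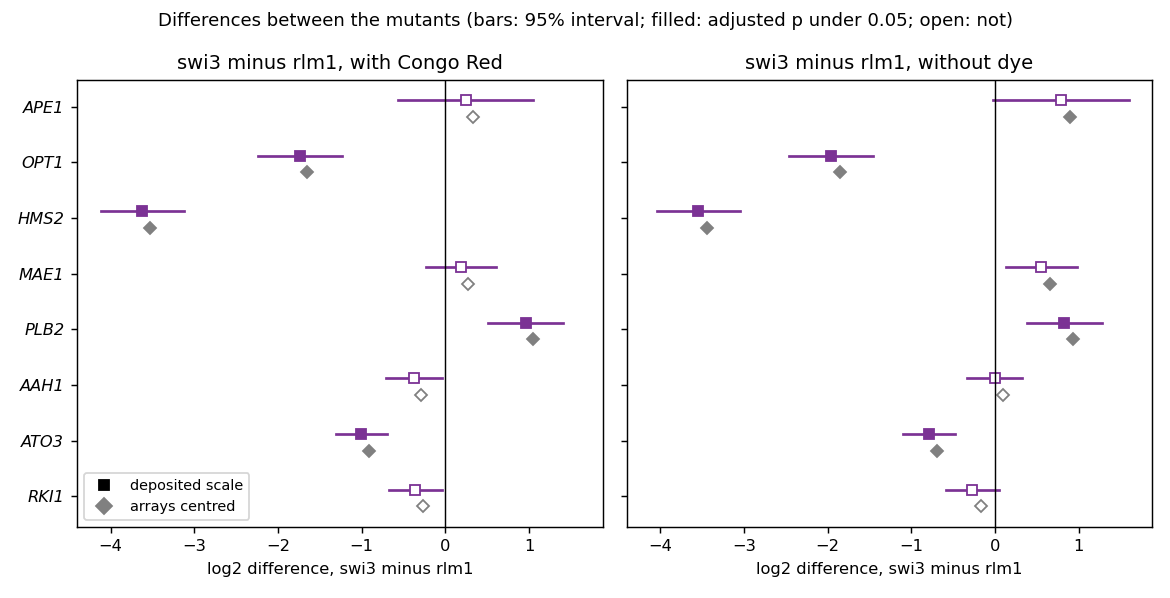
Difference of swi3 from rlm1 with Congo Red (left) and without it (right), on the log2 scale; squares with bars are the deposited scale with 95% intervals (n = 3 arrays per group), diamonds the values after each array was centred on its median, and filled symbols have an adjusted p under 0.05. HMS2 (-3.62 and -3.55) and OPT1 (-1.74 and -1.96) stand far to the left in both panels, and PLB2 (0.96 and 0.83) to the right.

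The third comparison was of each mutant with the wild type over both dye conditions. A mutant that starts at the wild-type level and does not respond comes out higher by design, since the wild-type mean includes the low treated arrays that chose the genes. Higher values are therefore given as a description, with no test and with the untreated difference beside them. Only values below the wild type are given with a test. The low treated wild-type arrays work against such values, whereas untreated wild-type arrays that read high by the choice work for them. The choice thus pushes the untreated differences towards lower values, and these are a description only. In swi3, 3 of 8 members were called lower than the wild type, where 46% of all features were. The median of all features was shifted by -0.39, and with centred arrays 26% were called lower.

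HMS2 was at -2.98 ± 0.16 in swi3 against the wild type (SE, 6 arrays per strain, limma adjusted p = 3.3e-09), with an untreated difference of -3.42. OPT1 was at -1.76 ± 0.17 (adjusted p = 1.2e-06) and -2.27 without the dye. Same-numbered arrays of a strain are not independent here, and with each pair averaged to 1 value (3 per strain) HMS2 and OPT1 were called with adjusted p-values of 2.17e-05 and 0.00105, the 2 lower calls among the 8 where 16.1% of all features were called lower. ATO3, at -0.46 ± 0.10 (adjusted p = 0.00242) and -0.70 without the dye, was close to the shift of all features. Its call was lost with averaged pairs (0.0619), with centred arrays (-0.10, adjusted p = 0.481) and with quantile normalization (-0.21, adjusted p = 0.0717). APE1 (1.06), MAE1 (0.83) and PLB2 (0.61) had higher means in swi3, beside untreated differences of 0.25, 0.47 and 0.26. On the deposited scale AAH1 (-0.003) and RKI1 (0.007) lay near 0, beside untreated differences of -0.34 and -0.32. The median of all features was itself shifted by -0.41 without the dye. With centred arrays AAH1 was at 0.35 and RKI1 at 0.36 over both conditions, beside 0.03 and 0.05 without the dye.

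In rlm1, PLB2 was the 1 member below the wild type, at -0.29 ± 0.15 (adjusted p = 0.175) and -0.56 without the dye. The other 7 had higher means, from 0.08 for OPT1 to 0.60 for HMS2, while the median of all features was -0.27. Beside these averages, the untreated differences were 0.13 for HMS2 (0.60 over both conditions), 0.10 for ATO3 (0.44), -0.53 for APE1 (0.54), -0.08 for MAE1 (0.47), -0.05 for RKI1 (0.32), -0.33 for AAH1 (0.19) and -0.31 for OPT1 (0.08). Without the dye, HMS2 and ATO3 alone had a mean above that of the wild type on all arrays and the deposited scale. The median of all features was there shifted by -0.27. Without the 2 rlm1 arrays numbered 1, the untreated differences were 0.31 for HMS2, 0.15 for ATO3, 0.04 for RKI1 and 0.02 for MAE1. In that fit OPT1 was at -0.07, APE1 at -0.16, AAH1 at -0.36 and PLB2 at -0.40. With centred arrays RKI1 (0.22) and MAE1 (0.18) also lay above the wild type, beside HMS2 (0.39) and ATO3 (0.36).

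The levels of the 8 genes over the 18 arrays, each array centred on its median, were compared gene by gene. The arrays include the wild-type ones whose difference chose all 8 genes, which by itself makes their profiles alike, so the values are a description only. The 28 pairwise correlations ran from -0.59 to 0.96 with a median of 0.49. HMS2 and OPT1 had the highest (r = 0.96), followed by AAH1 with RKI1 (0.86) and MAE1 with AAH1 (0.84). HMS2 was negatively correlated with PLB2 (-0.59), APE1 (-0.32) and MAE1 (-0.31). These values describe arrays that share strain, dye and replicate number, and the low swi3 levels of HMS2 and OPT1 enter every one that involves them. RKI1 (r = 0.96) and AAH1 (0.90) lay closest to the mean profile of the 8 genes, in which each gene is itself 1 of 8, and HMS2 farthest (0.33).

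**Figure D4:**
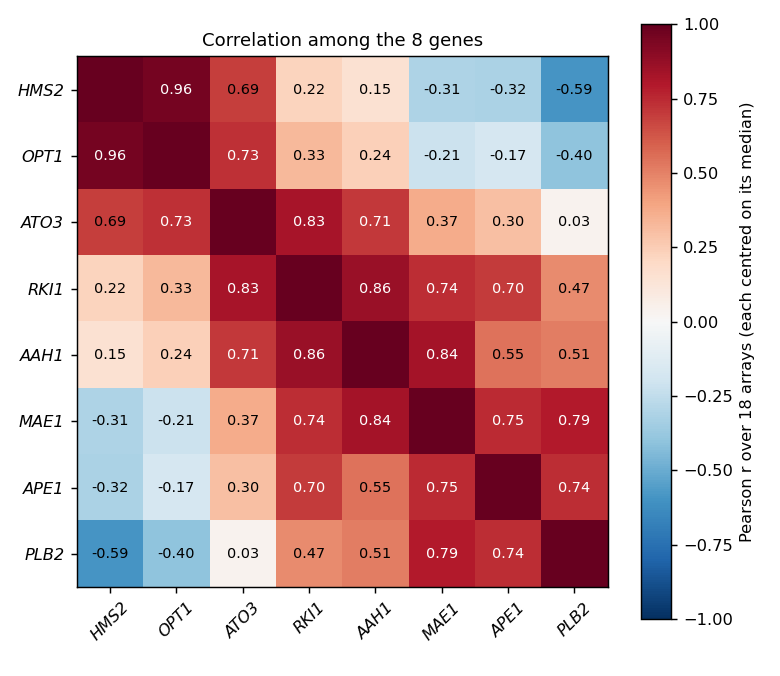
Pearson correlation between each pair of the 8 genes over the 18 arrays, each array centred on its median; red is positive and blue negative. HMS2 and OPT1 form a pair (0.96) that is negatively correlated with MAE1, APE1 and PLB2, while RKI1, AAH1 and MAE1 correlate at 0.74 to 0.86.

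Outside the 8, the named genes whose profile over the 18 arrays was most like the mean of the 8 were ERB1 (r = 0.96) and MTR4 (0.96), both of ribosomal RNA processing, then RTT10 (0.95), SAM4, a methyltransferase that makes methionine (0.94), and ECM16, an RNA helicase (0.94). ERB1 averaged 10.94 and 11.17 in treated and untreated swi3, 11.28 and 11.35 in treated and untreated rlm1, and 10.96 and 11.55 in the treated and untreated wild type. Of the 5, MTR4 alone was called lower in the wild type without pairing (-0.64 ± 0.16, n = 3 per group), where 0.477% of all features were. All 5 were called lower there with the replicate block, where 16% of all features were. The 5 were picked for likeness to a profile that includes the wild-type difference that chose the 8 genes. Their own wild-type differences are therefore a description only.

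The pathways around the 8 genes were followed in lists of 134 measured genes, members left out, of 138 listed. In the wild type 0 of the 134 were called lower and 3 higher (0.477% and 1.57% of all features), and in swi3 and rlm1 0 were called. At an unadjusted p under 0.05 there were 26, 2 and 2. The wild-type counts depend on the 2 rlm1 arrays numbered 1, through the spread shared by all groups: without these arrays, and still without pairing, 21 were lower and 25 higher (8.2% and 10.5% of all features). With the replicate block, on all arrays, 31 were lower and 32 higher (16% and 16.8% of all features).

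**Figure D5:**
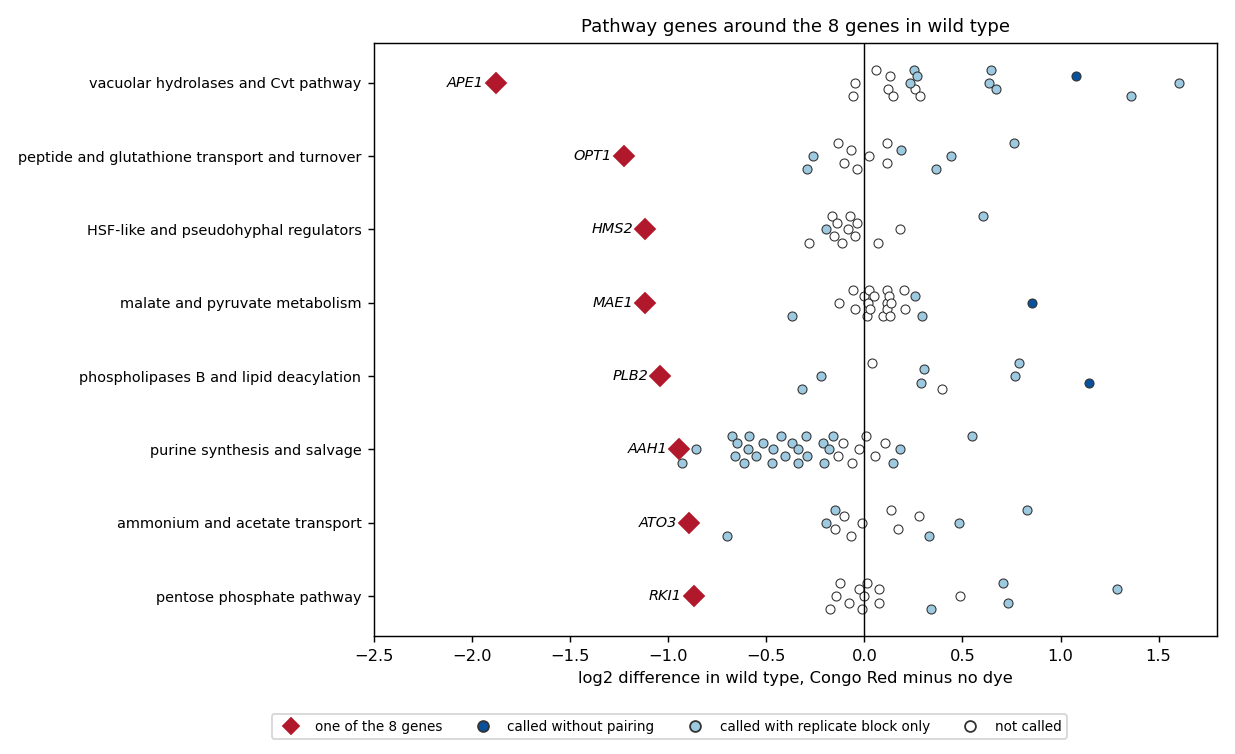
Congo Red minus no dye in the wild type, on the log2 scale, for the measured genes of 8 pathway lists (circles) and the member that each list surrounds (diamonds); dark circles were called by the fit without pairing, light ones with the replicate block only, open ones not at all. The purine list lies mostly below 0, and the vacuolar list mostly above it, opposite to APE1.

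In the list of purine synthesis and salvage, around AAH1, most means were lower. Its 33 measured genes had a median of -0.34 in the wild type, against -0.01 over all features, and 27 had a lower mean with the dye. None was called without pairing on all arrays on the deposited scale (13 lower and 1 higher with centred arrays), where 12 had an unadjusted p under 0.05. With the replicate block 23 were called lower and 3 higher, that is 69.7% lower against 16% of all features. In the fit without pairing and without the 2 rlm1 arrays numbered 1, 18 were lower and 1 higher (8.2% and 10.5% of all features). The same wild-type arrays chose AAH1, and the list was drawn up with earlier results of these data known. Its share of lower genes is therefore a description only. The 4 largest decreases, named after their values were seen, were ADE17, of the last steps of inosine monophosphate synthesis (-0.93 ± 0.30), HPT1, which salvages hypoxanthine (-0.86 ± 0.22), ADE1 (-0.68 ± 0.25) and FCY2, the purine and cytosine permease that brings adenine in (-0.66 ± 0.21). Limma's adjusted p-values with the block were 0.000211, 0.000301, 0.000217 and 7.24e-05. GUD1, guanine deaminase, was among the 3 higher (0.55, adjusted p = 0.0167 with the block). The list's median was -0.07 in swi3 and -0.06 in rlm1, with 0 calls without pairing. With the block 3 were lower in swi3 and 0 in rlm1, against 1.31% and 0.353% of all features.

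Around APE1, no gene of the vacuolar hydrolases and the Cvt route was called lower in the wild type. PRB1, vacuolar proteinase B, rose by 1.08 ± 0.24 (SE, n = 3 per group, limma adjusted p = 0.0283), the 1 call among 17 genes, whose median was 0.26. Treated wild-type arrays had PRB1 at 11.98, 11.76 and 11.99, against 11.08, 10.69 and 10.73 on untreated ones. With the block 9 rose and 0 fell, against 16.8% and 16% of all features. The 9 included ATG19, the receptor that carries the APE1 product into the vacuole (0.63, adjusted p = 9.02e-05), AMS1, the alpha-mannosidase that travels the same route (1.60, adjusted p = 1.9e-05), and ATG8 (1.36, adjusted p = 3.25e-05). These 3 were not called without pairing on all arrays (adjusted p from 0.129 to 0.405). Once the 2 rlm1 arrays numbered 1 were left out, they were called without pairing (from 2.58e-05 to 0.00134). There the list again had 9 higher and 0 lower calls, against 10.5% and 8.2% of all features.

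Around PLB2, GDE1, a glycerophosphocholine phosphodiesterase, rose by 1.14 ± 0.21 in the wild type (n = 3 per group, limma adjusted p = 0.00597), the 1 call among 9 genes of lipid deacylation. Both paralogs of PLB2 had higher means, PLB1 by 0.79 ± 0.28 (adjusted p = 0.233) and PLB3 by 0.30 ± 0.17 (0.65), and both were called with the replicate block (0.000506 and 0.00824). With the block 5 genes of the list were higher and 2 lower, against 16.8% and 16% of all features, the lower ones being NTE1, a lysophospholipase (-0.32, adjusted p = 0.00844), and ALE1, a lysophospholipid acyltransferase (-0.22, adjusted p = 0.013). In swi3 averaged over the dye, PLB1 (-1.10) and PLB3 (-1.45) were lower than in the wild type (adjusted p = 0.000579 and 3.25e-07, and 0.0215 and 0.000856 with averaged pairs).

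Around MAE1, CIT1, mitochondrial citrate synthase, rose by 0.86 ± 0.19 in the wild type (limma adjusted p = 0.0283), the 1 call among 22 genes of malate and pyruvate metabolism, whose median was 0.11. PYC2, a pyruvate carboxylase, at -0.37, was called lower with the block (adjusted p = 0.000852) and without pairing once the 2 rlm1 arrays numbered 1 were left out (0.0171), but not on all arrays without pairing (0.53). Of the 3 calls in the wild type (PRB1, CIT1 and GDE1), 1 or 2 calls were left when any 1 of the 6 wild-type arrays was left out, and 10 were made without the treated rlm1 array numbered 1.

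The pentose phosphate list had no call among 15 genes and a median of 0.01, against -0.87 for RKI1. RPE1, the epimerase that acts beside RKI1 on ribulose 5-phosphate, was at -0.14 ± 0.17 (limma adjusted p = 1). NQM1, a paralog of transaldolase, was at 1.29 ± 0.35 (adjusted p = 0.0834) and GND2, a phosphogluconate dehydrogenase, at 0.73 ± 0.20 (0.0759). With the block 4 of the 15 rose, where 16.8% of all features did, NQM1 and GND2 among them (adjusted p = 0.00141 and 0.0244), and 0 fell.

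The lists around ATO3, OPT1 and HMS2 had no call in any strain without pairing on all arrays, among 13 measured genes each, with wild-type medians of -0.01, 0.02 and -0.08. Without the 2 rlm1 arrays numbered 1, 3, 3 and 1 genes were called higher in the wild type and 0 lower. Of all features 10.5% were called higher there and 8.2% lower. With centred arrays 1 in each list was higher. With the block 3, 4 and 1 were higher and 3, 2 and 1 lower, against 16.8% and 16% of all features. The largest of the lower was GLT1, glutamate synthase, of the ATO3 list (-0.70, limma adjusted p = 0.00757). ATO2, a paralog of ATO3, was at 0.48 ± 0.14 (limma adjusted p = 0.109, 0.0211 with the block, and 0.0118 without the 2 rlm1 arrays), and ADY2, the other paralog, at -0.01 ± 0.51 (adjusted p = 1). OPT2, a relative of OPT1, was at 0.76 ± 0.40 (0.562, 0.00502 with the block, and 0.016 without the 2 rlm1 arrays). In swi3 averaged over the dye OPT2 was lower than in the wild type, at -1.77 ± 0.28 (adjusted p = 0.000178, and 0.00983 with averaged pairs). OPT2 was below a level of 7 on all 6 swi3 arrays and in the untreated wild type, so the size of this difference is uncertain. In the wild type ATO2 was at 7.04 or below and ADY2 at 6.55 or below. The sizes of the wild-type responses of OPT2, ATO2 and ADY2 are thus uncertain too. The heat shock factor HSF1 and its relative SKN7 were at -0.05 and -0.07 in the wild type with the dye (adjusted p = 1 for both), and at -0.63 and -0.59 in swi3 against the wild type (adjusted p = 0.00331 and 0.000914), close to the shift of all features, and neither was called with centred arrays (0.231 and 0.0506) nor HSF1 with averaged pairs (0.0598). APE3, another vacuolar aminopeptidase, was at 0.06 ± 0.14 with the dye (adjusted p = 1).

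By the order of protein-coding genes in assembly R64, no 2 of the 8 genes adjoin each other. Of their 16 neighbours 11 were measured, and 0 of these were called in the wild type, with differences from -0.19 to 0.28 (limma adjusted p = 1 for each). With the block PEX2, beside OPT1, and MEP2, beside AAH1, both at -0.19, were called lower (adjusted p = 0.0211 and 0.0124, where 16% of all features were), and PEX2 also without the 2 rlm1 arrays numbered 1 (0.0461). BAT2, which adjoins HMS2, was at -0.02 ± 0.26 with the dye and lower in swi3 than in the wild type over both dye conditions (-0.92 ± 0.18, adjusted p = 0.000983, and 0.029 with averaged pairs). TFA1, beside MAE1 (-0.63, limma adjusted p = 0.00313), and ARF3, beside RKI1 (-0.405, 0.0135), were called lower in swi3 as well. In that comparison 46% of all features were called lower, and the other measured neighbours were not called. The other neighbour of HMS2 was not measured by name.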

How the data were processed

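RNA of 18 samples was hybridised to Affymetrix yeast arrays. The deposited values are log2 levels made by the authors with GCRMA, per the submitters' processing notes. Its version, and which arrays were normalized together, are not stated there. The table held 5814 probe sets. Leaving out 98 controls, keeping the brighter probe set of a gene (49 dropped) and requiring a level of 4 on 3 arrays (8 removed) left 5659 features. The platform annotation, with 12 symbols updated, named 5442 of these. R64 served for names and gene order only, and no sequence was used.

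A limma 3.58.1 fit (R 4.3.3) with 6 group means over all 18 arrays gave differences, SEs and Benjamini-Hochberg adjusted p-values over all features, with calls at an adjusted p under 0.05. It was tested on simulated data. Same-numbered arrays of a strain deviated together (r from 0.419 to 0.909, against -0.902 to 0.871 for other numbers), so the numbers were taken as pairs and values with the replicate block are given where they change a call. Alternatives were centred or quantile-normalized arrays, other variance models, array weights, other filters, probe set means, left-out arrays and fits of the compared strains alone. The block without the rlm1 arrays numbered 1, and averaging same-numbered arrays for the mean strain differences, were added after seeing the data.

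The members and the pathway lists were chosen with earlier results of these data known. Named list genes were those called in the wild type, a fixed set of relatives or pathway partners of the members, the 5 genes most like the members' mean profile, and genes called with the block, these last named after their values were seen. ATG42, GEX2, GPC1 and ADE5,7 of the lists were not measured by name. An array has no read depth, and 3 arrays per group limit the precision.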

Additional observations from a re-analysis of the deposited data

Results flagged for a closer look

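APE1 differed in opposite directions in every same-numbered pair of 2 strains: by 0.34, 0.34 and 0.14 on the log2 scale with Congo Red in rlm1 (mean 0.27, n = 3 pairs) and by -1.98, -2.33 and -1.33 in the wild type. The difference between these responses was not tested, because the wild-type values chose the gene. The rlm1 response was not called (SE 0.38, 95% interval -0.53 to 1.08). It turned to -0.10 without the untreated rlm1 array numbered 1, so its direction is uncertain. In swi3 the pairs were at -0.28, -0.64 and 0.10.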

How the results depend on the processing

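No value changed its direction while called. Among 624 alternative values of the members' 56 tested differences (left-out arrays aside), 42 gained and 12 lost a call, and 10 signs changed, all in values smaller than their SE. Single left-out arrays changed another 27 such signs. Counts of members called moved as follows, and those without a share of all features beside them describe the settings only. For swi3 minus rlm1 without the dye, 4 calls became 6 with centred arrays, quantile normalization or array weights and 3 with these strains alone. With centred arrays 16.4% of all features were called higher there. Leaving out both rlm1 arrays numbered 1 added RKI1 (-0.36, limma adjusted p = 0.00588), where 57% of all features were called lower. With Congo Red, 4 became 6 with array weights or without both rlm1 arrays numbered 1. In the latter fit 55% of all features were called lower, as were the added AAH1 and RKI1. Quantile normalization added RKI1 with Congo Red (-0.32, limma adjusted p = 0.0123). For rlm1 minus wild type, 2 became 6 centred, 7 by quantiles, 1 by ordinary least squares, 7 with array weights, 6 without both rlm1 arrays numbered 1, 0 with these strains alone and 0 with same-numbered arrays averaged. For swi3 minus wild type, 6 became 3 with same-numbered arrays averaged, where 16.1% of all features were called lower. Both wild-type comparisons hold the arrays that chose the genes, so their higher calls support nothing. For the responses, the replicate block gave 2 calls in swi3, where 1.31% of all features were called lower, and 2 also without both rlm1 arrays numbered 1. Array weights gave 4 in rlm1 and 1 for swi3 minus rlm1. The array weights did not converge, and their values are given for completeness. The block changed no other member call. Between strains at 1 dye condition each pair gives a single array, so no replicate block was fitted there.

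List genes called in the wild type numbered 3, and 29 centred, 42 by quantiles, 61 with array weights, 46 without both rlm1 arrays numbered 1, 63 with the block, 62 with the block and without those arrays, and 40 with the wild type alone. In rlm1, 0 became 1 centred, 1 by quantiles, 70 with array weights, 4 with the block and 1 with the block without those arrays. In swi3, 0 became 1 centred, 4 with array weights, 2 without those arrays and 11 with the block, with or without them. Leaving out each array in turn gave 0 to 0 member calls for each response and their difference, 3 to 5 for swi3 minus rlm1 without the dye, 4 to 5 with it, 0 to 3 for rlm1 minus wild type, 6 to 6 for swi3 minus wild type, and 1 to 10 list genes in the wild type.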
